A study of Mus musculus with 3 samples.

Results

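The minichromosome maintenance (MCM) genes encode the helicase that opens DNA for replication and several of its relatives. The family described here is Mcm2 to Mcm10. Its members were found as every probe on the arrays whose gene name is one of these 9 symbols, whatever its signal. This gave 9 of the 24812 genes named on the arrays, and 18 of their 43733 probes. Mcm3 and Mcm9 had 4 probes each, Mcm6, Mcm7 and Mcm10 had 2 each, and the other 4 genes had 1 each. All 18 probes were well above background and unsaturated on every array, so no member was lost to a filter.

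The samples came from CLDE, a dental epithelial cell line of the mouse. It was established from the cervical loop, where stem cells keep the incisor growing. The cells were grown in a serum-free keratinocyte medium and collected 72 h after transfection with Lipofectamine RNAiMax. There was 1 array each for a mock transfection (mock), a non-targeting ON-TARGETplus control (siNeg) and a Krt15 siRNA (siKrt15). From the series title, the question was the role of keratin 15 in the proliferation of outer enamel epithelial cells. The labels contradict each other for 2 arrays: their titles and source names say siNeg and siKrt15, and their descriptions and treatment fields say the reverse. Groups here follow the titles, and "the siKrt15 array" is the array titled so. The cells are a single line in culture, and no label gives a stage, a clone number or the animal it came from.

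Krt15, the type I keratin that the siRNA targets, checks these labels. Its processed signal was 2638 on the mock array, 1647 on the siNeg array and 267 on the siKrt15 array. The log2 difference of siKrt15 from siNeg was −2.88 ± 0.20, which is 7.38-fold lower, and that from mock was −3.48 ± 0.20, or 11.2-fold lower. This direction goes with the titles. Under the descriptions every difference between siKrt15 and siNeg below would change sign, and Krt15 would be higher under its own siRNA.

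The 75th percentile of signal was 191.1 on mock, 180.4 on siNeg and 216.0 on siKrt15, and between 67.3% and 69.2% of spots were well above background. Signals below are printed as scanned, in arbitrary units. Each log2 difference is taken after subtracting these percentiles, so a signal that is equal on 2 arrays is not a difference of 0. All 14 basal and dental epithelial markers were above background on every array, with a summed signal of 2177, 2453 and 2110 times the 75th percentile on mock, siNeg and siKrt15. Of 7 ameloblast markers 1 was above background on all arrays (sums of 0.25, 0.27 and 0.25), and the enamel genes Ambn, Amtn, Enam, Mmp20 and Odam were on none. Of 10 mesenchyme markers 7 were above background on all arrays (sums of 1.87, 1.91 and 1.65), with Lum and Pdgfrb on none. Of 10 endothelium and blood markers 9 were on the array, and 5 were above background on all (sums of 13.5, 12.2 and 9.78). Cdh5, Hbb-bs, Kdr and Lyz2 were on none, and the marker without a probe, which was not measured, is among them. The part of these markers in the results was not tested.

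With 1 array per group there is no replicate check and no p-value, and a difference is between 2 arrays, not 2 conditions. The error given after ± is the SD of the log2 difference from the scanner's error model. It is nearly the same for all bright probes, it is not reduced for genes with several probes, and it leaves out differences between cultures. The position of an array on its slide and its group cannot be told apart. The 2 comparisons with siKrt15 share that array, so they are not independent. In a bulk sample a change in the number of replicating cells and a change in RNA per cell cannot be told apart.

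As background, Mcm2 to Mcm7 form a ring of 6 different subunits. The origin recognition complex with Cdc6 and Cdt1 loads it onto DNA as an inactive double ring in G1 phase, a step called licensing. In S phase the kinase complex of Cdc7 and Dbf4 acts on it, and Cdc45 and the GINS complex join it to make the active CMG helicase. Mcm10 is needed for that activation and shares no helicase fold with the others. Mcm8 and Mcm9 form a separate complex that works in homologous recombination and is needed for fertility. Most of these genes are E2F targets that are transcribed as cells leave quiescence, and MCM proteins are common markers of cells able to divide.

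The sequences upstream of 3 members are shown because these genes span the range of the differences described below, from Mcm5 to Mcm9. They are the 160 bases before the annotated start, read 5′ to 3′ on the gene's strand from RefSeq on GRCm38.p6. Capitals mark the E2F words TTTGGCGC and TTTCCCGC and the CCAAT word, on either strand. The regions are chr8:75109349-75109508 on the plus strand for Mcm5, chr1:128359706-128359865 on the minus strand for Mcm6 and chr10:53629958-53630117 on the minus strand for Mcm9.

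Mcm5 promoter: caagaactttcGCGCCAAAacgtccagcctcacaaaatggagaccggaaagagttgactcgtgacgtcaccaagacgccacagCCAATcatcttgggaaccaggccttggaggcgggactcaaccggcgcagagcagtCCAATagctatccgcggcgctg

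Mcm6 promoter: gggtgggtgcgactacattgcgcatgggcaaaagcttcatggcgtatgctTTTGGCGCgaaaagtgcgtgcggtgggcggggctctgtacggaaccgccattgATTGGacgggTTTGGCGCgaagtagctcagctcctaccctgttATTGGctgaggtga

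Mcm9 promoter: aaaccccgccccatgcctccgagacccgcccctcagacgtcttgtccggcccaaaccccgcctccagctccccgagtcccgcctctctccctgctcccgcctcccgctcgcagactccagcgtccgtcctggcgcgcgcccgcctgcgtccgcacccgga

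Mcm6 carries an E2F word 110 and another 47 bases before its start, and Mcm5 carries 1 on the opposite strand at 149. The stretch from Mcm9 holds none of these words. Windows of 250 bases before and 50 after the start were held for 8 of the 9 members, Mcm7 with 2 windows. An E2F word was present in 5 of the 8 members (Mcm3, Mcm5, Mcm6, Mcm7 and Mcm8) and in 1.56% of all 32851 windows in the table. In Mcm3 both E2F words and in Mcm8 the single one lay after the start. A CCAAT word was in all 8 members and in 37.4% of all windows. The word TTTGAA, a form of the cell-cycle homology region that marks many G2 and M phase genes, was in 1 member (Mcm2) and in 17.9% of windows. None of the words found in the members overlapped. Mcm2, Mcm9 and Mcm10 held neither TTTGGCGC nor TTTCCCGC in these windows. Other forms of an E2F site were not searched for, so the E2F counts here are of these 2 words alone.

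In siKrt15 against siNeg 8 of the 9 members had a log2 difference above 0 after scaling, beside 39.4% of the 17121 genes measured. Mcm9 was near 0. The median log2 difference over all 9 members was 0.95, against −0.08 over all genes measured. Mcm3, Mcm5, Mcm8 and Mcm10 were at least 2-fold higher, which is 4 of 9, and none was 2-fold lower. Mcm3, Mcm8 and Mcm10 passed 2-fold by less than 1 error SD, and over the other 7 scalings the count was 1 (normexp) to 6 (spike-in). The same threshold was passed upwards by 1.70% and downwards by 2.0% of all genes. Among genes at or above the median signal, where 7 of the 9 members lay, 1.07% were at least 2-fold higher. Against mock the median of the members was 1.03, against −0.06 over 17130 genes, and 5 of 9 members were at least 2-fold higher, with Mcm4 added (2 of 9 with normexp). The shares over all genes were 2.18% higher, 1.24% lower and 1.40% higher among genes at or above the median signal. In siNeg against mock 0 of 9 members passed 2-fold in either direction, and their differences lay between −0.08 and 0.19. There the shares were 0.356% higher, 0.0459% lower and 0.0230% higher among genes at or above the median signal.

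**Figure D1:**
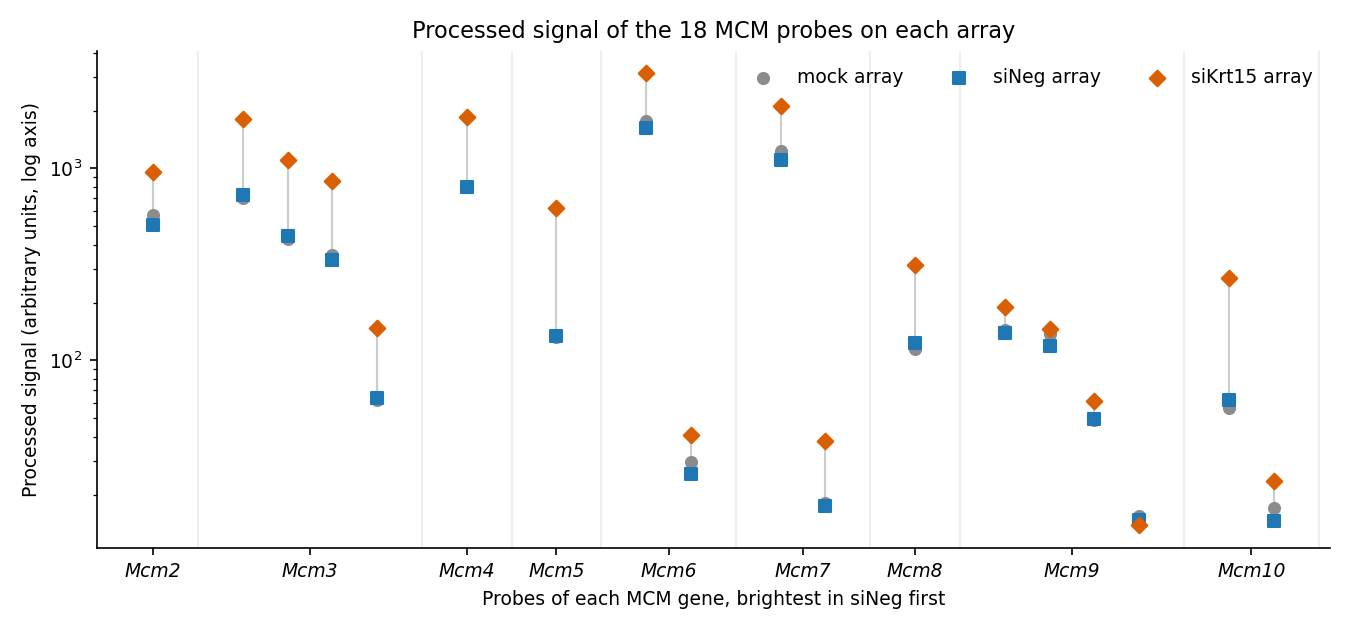
Processed signal of each of the 18 MCM probes (arbitrary units, log axis) on the mock, siNeg and siKrt15 arrays, grouped by gene. In these signals before scaling the siKrt15 point lies above both controls for 17 of the probes. The exception is the dimmest Mcm9 probe, with a siKrt15 signal of 13.8. The siKrt15 array is also the brightest, with a 75th percentile of 216.0 against 191.1 on mock and 180.4 on siNeg. The share of all probes highest on siKrt15 was not counted. After scaling, an Mcm9 probe among the 17 lies at −0.09 against mock. Heights of different probes are not comparable as levels.

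Mcm5 had the largest gene value of the family in both siKrt15 comparisons. The brighter of the 2 Mcm10 probes, described below, came close to it against siNeg and was level with it against mock. It is the subunit that closes the ring next to Mcm2, at the gate through which DNA enters. Its single probe lies at chr8:77651350-77651410 on the plus strand of mm9, the build of all probe positions here. The first 30 bases of the probe are given to identify what was measured.

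Mcm5 probe A_51_P190111: tggaaatgtactttggtctgttggctcata

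The Mcm5 signal was 132.1 on mock, 133.2 on siNeg and 618.8 on siKrt15. Both controls were nearly equal, and the siKrt15 array stood apart from both. The log2 difference was 1.96 ± 0.20 against siNeg, which is 3.88-fold, and 2.05 ± 0.20 against mock, or 4.14-fold. This put Mcm5 at rank 36 of 17121 genes against siNeg and at rank 41 of 17130 against mock. In siNeg against mock it was at 0.09.

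Mcm2, the gate subunit on the other side, had signals of 571.0 on mock, 509.7 on siNeg and 960.5 on siKrt15. It was higher in siKrt15 by 0.65 ± 0.20 against siNeg and by 0.57 ± 0.20 against mock. The siNeg signal was the lowest of the 3, at −0.08 from mock after scaling. The probe is at chr6:88833619-88833678 on the minus strand. The difference of Mcm5 exceeded that of Mcm2 by 1.30 ± 0.29 against siNeg.

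Mcm3 is the subunit through which the ring is recruited to loading factors. Its brightest probe gave 703.8 on mock, 727.6 on siNeg and 1806 on siKrt15. Its other 3 probes gave 426.7, 445.5 and 1107, then 353.0, 334.0 and 861.1, and then 62.2, 63.4 and 147.0 on the same arrays. On each of the 4 probes siKrt15 was well above both controls. The probes agreed closely, with log2 differences from 0.95 to 1.11 against siNeg and from 1.06 to 1.20 against mock. The gene's value was 1.04 ± 0.20 against siNeg and 1.14 ± 0.20 against mock. Against siNeg this lies just past 2-fold by less than its error.

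Some of the Mcm3 probes share sequence, and the part of this in their agreement was not tested. The probes A_66_P130629, at chr1:20793159-20793218, and A_51_P324934, at chr1:20793119-20793178, overlap by 20 bases on the minus strand. A stretch of 30 bases from each is shown, with the shared bases in capitals.

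Mcm3 probe A_66_P130629: ggattggagaAAGCTTTCTTTGCGATTAGA

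Mcm3 probe A_51_P324934: AAGCTTTCTTTGCGATTAGActagtatgta

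Of the other 2 Mcm3 probes, A_55_P2499523 lies 46 bases from this pair. A_52_P364776 lies at least 2038 bases from each of the others and spans 517 bases of the genome. That distant probe gave the lowest of the 4 differences against siNeg, 0.95 ± 0.21, still within its error of the other 3.

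Mcm4, which forms a stable core with Mcm6 and Mcm7, had signals of 798.1 on mock, 797.1 on siNeg and 1846 on siKrt15. It was higher in siKrt15 by 0.95 ± 0.20 against siNeg and by 1.03 ± 0.20 against mock. It is thus on different sides of the 2-fold threshold in the 2 comparisons while the values differ by less than the error. Its probe is at chr16:15624372-15624431 on the minus strand.

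Mcm6, the partner of Mcm2 in the ring, had a bright and a dim probe. The bright one gave 1760 on mock, 1622 on siNeg and 3128 on siKrt15, and the dim one 29.5, 25.5 and 40.7. Both were highest on siKrt15. Their differences were 0.69 and 0.41 against siNeg, and against mock they were 0.65 and 0.28. The gene's value was 0.55 ± 0.21 against siNeg and 0.47 ± 0.21 against mock, the smallest of the 6 ring subunits in both comparisons.

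Mcm7, which completes the core of Mcm4 and Mcm6, also had a bright and a dim probe, 4462 bases apart. The bright one gave 1226 on mock, 1100 on siNeg and 2108 on siKrt15, and the dim one 18.1, 17.4 and 37.8. The siKrt15 array was again above both controls on each. Here the dim probe gave the larger difference, 0.86 against 0.68 compared with siNeg and 0.89 against 0.60 compared with mock. The gene's value was 0.77 ± 0.21 against siNeg and 0.75 ± 0.21 against mock.

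Over Mcm2 to Mcm7 the median difference was 0.86 against siNeg, 0.89 against mock and 0.03 for siNeg against mock. Every one of the 6 subunits was higher in siKrt15 than in both controls, by 0.55 to 1.96 against siNeg. Of all genes 39.4% were above 0 against siNeg and 41.9% against mock.

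Mcm10, the activation factor, was measured by 2 probes that did not agree. The probe A_51_P212682, annotated to the RefSeq transcript NM_027290 at chr2:4911845-4911904, gave 56.7 on mock, 62.5 on siNeg and 267.2 on siKrt15. Probe A_65_P06862, annotated to the Ensembl transcript ENSMUST00000125201 at chr2:4920226-4920285, gave 17.0, 14.6 and 23.4. The first 30 bases of both are shown so that the 2 targets can be told apart.

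Mcm10 probe A_51_P212682: ttcgtatggagaaaagtttctctgcctaca

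Mcm10 probe A_65_P06862: gatgcctttgctgtcctactagtctgacct

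The first probe was higher in siKrt15 by 1.84 ± 0.21 against siNeg and by 2.06 ± 0.21 against mock, close to the values of Mcm5. The second was at 0.42 ± 0.23 and 0.28 ± 0.23. The gap of 1.42 between them is the widest within any member. The gene's mean of 1.13 ± 0.22 against siNeg and 1.17 ± 0.22 against mock therefore describes neither probe. The targets lie 8321 bases apart on the minus strand. Which transcripts of Mcm10 each probe reads was not tested.

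Mcm8, a helicase of homologous recombination, had signals of 114.5 on mock, 122.9 on siNeg and 312.7 on siKrt15. It was higher in siKrt15 by 1.09 ± 0.20 against siNeg and by 1.27 ± 0.20 against mock, on 1 probe at chr2:132669238-132669297 on the plus strand. In siNeg against mock it was at 0.19, the highest of the 9 members and within its error of 0.20.

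Mcm9, the partner of Mcm8, was the member that did not follow the others. Its brightest probe gave 143.5 on mock, 139.6 on siNeg and 188.7 on siKrt15. Another gave 137.3, 118.1 and 145.8, a dimmer one 49.1, 49.7 and 61.0, and the dimmest 15.5, 14.7 and 13.8. Against siNeg these were log2 differences of 0.17, 0.04, 0.04 and −0.35, each with an error of 0.20 to 0.25. Against mock they were 0.22, −0.09, 0.14 and −0.34. The gene's value was −0.02 ± 0.22 in both comparisons. Its sign has no meaning: over the main scaling and 7 others the difference against siNeg ran from −0.07 to 0.23 and was above 0 in 4 of 8. Less the all-gene median, its value was 0.04 to 0.06 in each of the 8, of which those that move a whole array by a constant match by construction.

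The 4 Mcm9 probes fall into 2 places at least 73950 bases apart on the minus strand of chromosome 10. The 2 brightest, at chr10:53331160-53331219 and chr10:53331140-53331199, overlap by 40 bases, and a stretch of each is shown with the shared bases in capitals. The other 2 lie 481 bases from each other, and one of them (A_52_P82660) is annotated to an Ensembl transcript.

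Mcm9 probe A_52_P16166: aagattacccCAAGGTCCGTTTTGACCACA

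Mcm9 probe A_66_P133824: CAAGGTCCGTTTTGACCACAGGAATTGGAT

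Although they share most of their bases, these 2 probes were at 0.17 ± 0.20 and 0.04 ± 0.20 against siNeg, and at 0.22 ± 0.20 and −0.09 ± 0.20 against mock. No probe sequence of a member was used for another gene on the array.

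**Figure D2:**
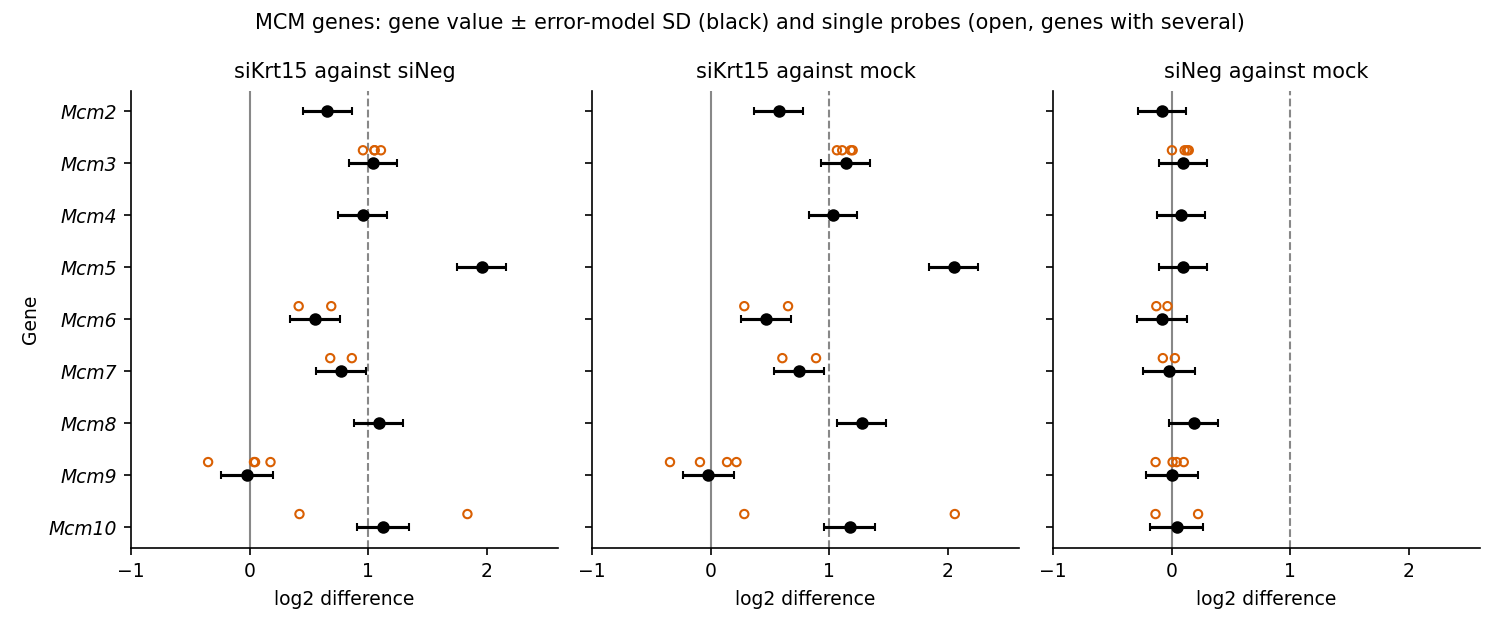
Log2 differences of the 9 MCM genes in the 3 comparisons (black points, bars of 1 error-model SD) with the single probes of genes that have several (open circles), a solid line at 0 and a dashed line at 2-fold. In both siKrt15 comparisons the gene value of Mcm5 is the highest (1.96 and 2.05), the 2 Mcm10 probes are far apart and Mcm9 sits near 0, and in siNeg against mock every gene lies between −0.08 and 0.19.

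Ordered by the difference against siNeg, the genes ran Mcm5, Mcm10, Mcm8, Mcm3, Mcm4, Mcm7, Mcm2, Mcm6 and Mcm9. Of the 36 pairs of members 14 differed by more than 2 error-model SDs against siNeg. These were Mcm5 above each of the other 8, and Mcm9 below Mcm2, Mcm3, Mcm4, Mcm7, Mcm8 and Mcm10. Among neighbours in the order this held for Mcm5 above the mean of Mcm10 alone, by 0.83 ± 0.30. That step rests on averaging the 2 Mcm10 probes that disagree. With the brighter Mcm10 probe it was 0.12 ± 0.29 against siNeg and −0.01 ± 0.29 against mock, and Mcm5 and Mcm10 then did not differ by 2 error-model SDs. The step from Mcm6 down to Mcm9, 0.57 ± 0.30, did not reach it. Against mock 18 of 36 pairs differed by that much, and in siNeg against mock 0 of 36 did. The same count over pairs of all genes was not made, so these counts have no background. The SD of the difference over all genes was 0.42 in siKrt15 against siNeg, 0.43 against mock and 0.23 in siNeg against mock. Mcm8 and Mcm9, which act as one complex, differed from each other by 1.11 ± 0.30 against siNeg and by 1.29 ± 0.30 against mock.

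**Figure D3:**
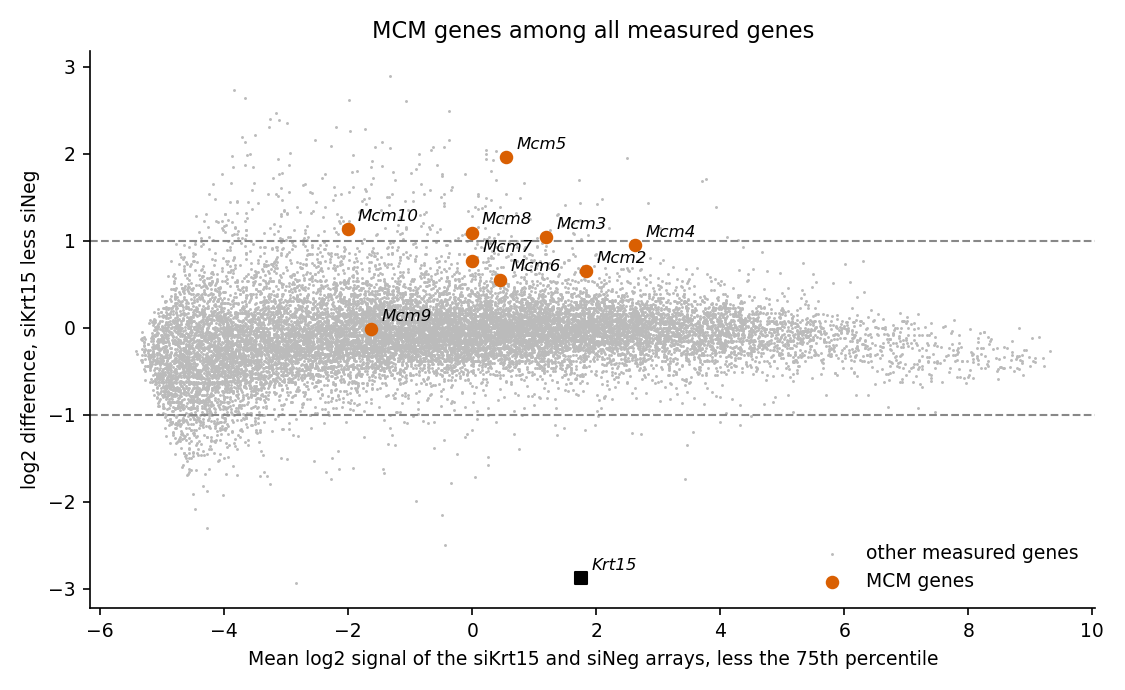
Log2 difference of siKrt15 from siNeg for each measured gene (grey) against its mean log2 signal on the 2 arrays less the 75th percentile, with the 9 MCM genes in orange, Krt15 as a black square and dashed lines at 2-fold in each direction. The MCM genes other than Mcm9 lie at 0.55 or above, and the median of all genes is −0.08.

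The genes that work with the MCM proteins were described by a list of 30 in 4 roles, all of which were measured. In siKrt15 against siNeg 6 of 30 were at least 2-fold higher and 0 were 2-fold lower, beside 1.70% and 2.0% of all genes, and their median was 0.51. Against mock 9 of 30 were higher and 0 were lower, beside 2.18% and 1.24% of all genes, and the median was 0.55. In siNeg against mock 0 of 30 passed in either direction, beside 0.356% higher and 0.0459% lower of all genes, with a median of 0.03. With shares this small, 0 of 30 says little about the list. The median over all genes was −0.08 for siKrt15 against siNeg, −0.06 against mock and 0.02 for siNeg against mock. Hrob alone was at least 2-fold higher against siNeg in the main scaling and all 7 others. Orc1, Cdc6, Gins1, Ticrr and Timeless were so in 7 of 8, all but normexp.

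Among the 10 genes that load the ring or control loading, the median was 0.24 against siNeg and 0.47 against mock. Cdc6, the ATPase that brings the ring to the origin, was higher by 1.25 ± 0.22 against siNeg and 1.45 against mock. Its probes differed. One gave 9.90 on mock, 12.3 on siNeg and 51.6 on siKrt15 (1.81 against siNeg), and the other 94.2, 89.0 and 173.3 (0.70). Orc1, the origin recognition subunit whose level varies over the cell cycle, was at 1.66 ± 0.26 against siNeg and 1.41 against mock. That value rests on 1 of its 3 probes, with signals of 11.2, 8.87 and 33.6, since the others were not well above background on all arrays. The remaining origin recognition subunits Orc2, Orc3, Orc4, Orc5 and Orc6 lay between −0.12 and 0.60 against siNeg. In siNeg against mock the largest differences of the whole list were Orc5 at 0.63, Mcmdc2 at −0.36, Orc2 at 0.33, Pole at 0.28 and Orc1 at −0.25.

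The other 5 subunits of the CMG helicase had a median of 0.85 against siNeg and 1.01 against mock, values like those of the MCM ring. Gins1 was higher by 1.08 ± 0.21 against siNeg and 1.01 against mock, with signals of 61.9 on mock, 55.4 on siNeg and 140.5 on siKrt15 averaged over 2 probes. Gins2 was at 0.85 and 1.05, and Cdc45 at 0.90 and 1.12. The Cdc45 probes were at 1.28 and 0.51 against siNeg. Gins4 was at 0.47 and 0.45. Gins3 went the other way, as a gene singled out after its values were seen. Its signal was 8338 on mock, 8108 on siNeg and 5649 on siKrt15, and its difference was −0.78 ± 0.20 against siNeg and −0.74 against mock, on 1 bright probe. It was below 0 in all 8 scalings, from −0.83 to −0.52 against siNeg.

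Among the 13 genes that activate the helicase or couple it to the fork, the median was 0.57 against siNeg and 0.55 against mock. All 13 were above 0 in both comparisons, beside 39.4% and 41.9% of all genes. Over the 8 scalings 13 were above 0 against siNeg and 11 to 13 against mock, where Dbf4 and Mtbp lay close to 0. The shares of all genes are for the main scaling and were not counted in the others. There the median of all genes ran from −0.12 to 0.18 against siNeg. Timeless, of the fork protection complex, was higher by 1.28 ± 0.20 against siNeg and by 1.1 against mock. Its 2 probes agreed, at 1.2 and 1.36 against siNeg. Its signals over both probes averaged 137.4 on mock, 115.2 on siNeg and 334.1 on siKrt15. Ticrr, which helps Cdc45 to join the ring, was at 1.12 ± 0.25 and 1.11 on 2 of its 3 probes. Pole, the catalytic subunit of the leading-strand polymerase that binds the CMG helicase, was at 0.82 against siNeg over 2 probes and at 1.79 against mock over 1. Its bright probe gave 93.3 on mock, 107.3 on siNeg and 365.1 on siKrt15, which is 1.51 against siNeg, and its dim probe was above background on 2 arrays only.

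Hrob, which recruits Mcm8 and Mcm9 to sites of recombination, had the largest difference of the list. Its signal was 52.0 on mock, 55.9 on siNeg and 274.6 on siKrt15, on 1 probe. The siKrt15 array was higher by 2.04 ± 0.21 against siNeg and by 2.22 against mock. It is listed under an older name in the files and was matched by accession. The MCM relative Mcmdc2 was at −0.34 against siNeg and −0.70 against mock. That value rests on 1 probe with signals of 7709 on mock, 5684 on siNeg and 5365 on siKrt15, while the other 3 probes of the gene were above background on no array, so the probe and its gene's other probes disagree.

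**Figure D4:**
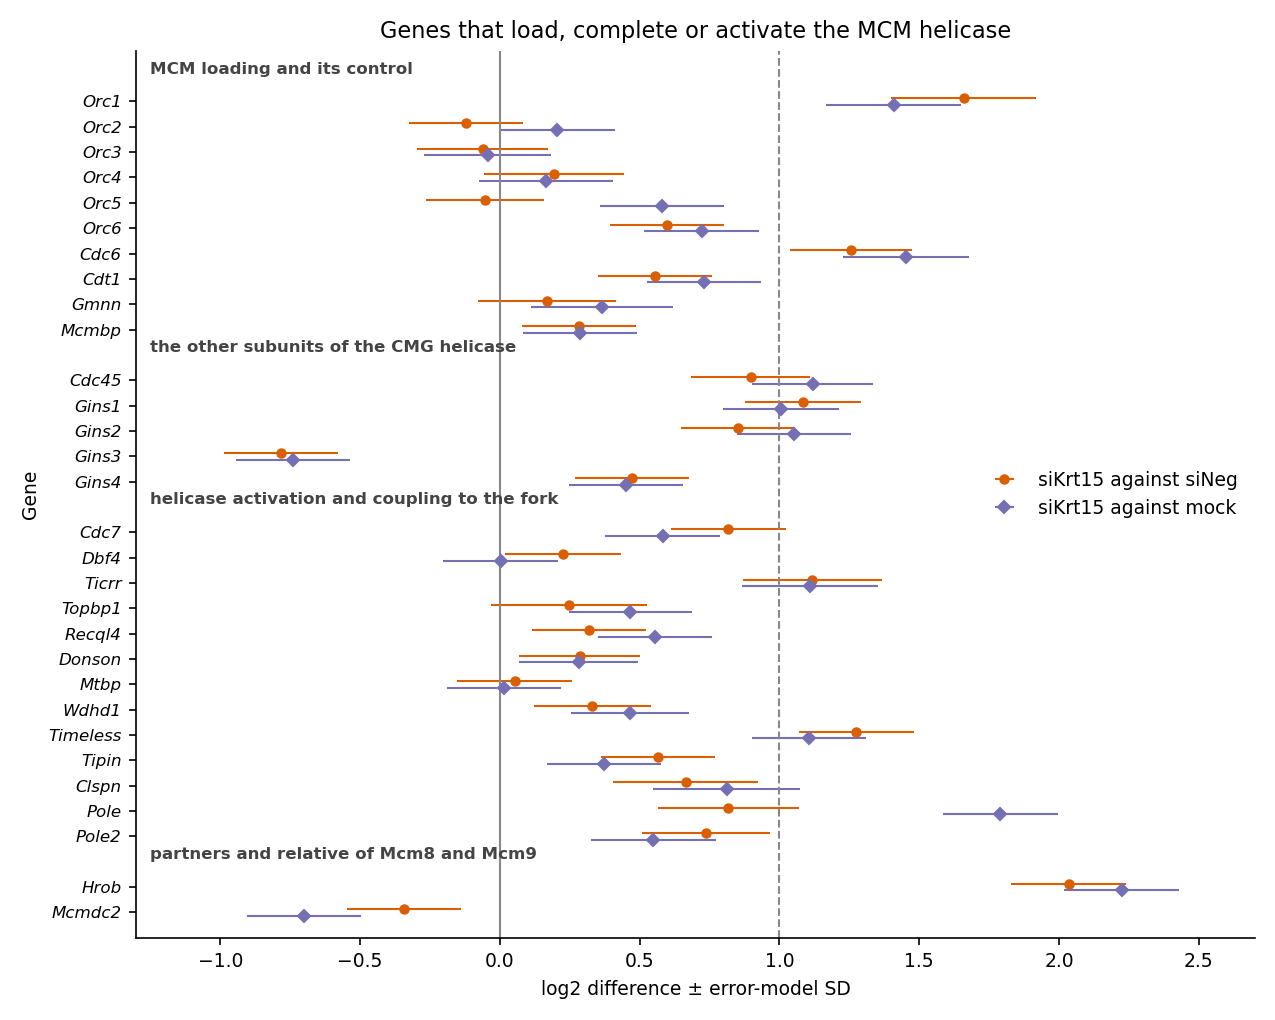
Log2 differences of the 30 genes that load, complete or activate the MCM helicase, by role, for siKrt15 against siNeg (circles) and against mock (diamonds), with bars of 1 error-model SD, a solid line at 0 and a dashed line at 2-fold. Hrob, Orc1, Cdc6, Timeless, Ticrr and Gins1 lie past 2-fold in both comparisons, and Gins3, Mcmdc2 and, close to 0, Orc3 lie below 0 in both.

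Mcm7 shares its promoter region with Ap4m1, a subunit of an adaptor complex of vesicle transport. The 2 genes start 138 bases apart on opposite strands, which was the sole such neighbour within 1000 bases of a member with a window. Ap4m1 had a mean signal of 145.5 on mock, 131.0 on siNeg and 180.8 on siKrt15 over 2 probes. Its difference was 0.20 ± 0.20 against siNeg and 0.14 ± 0.20 against mock, within its error of 0, where Mcm7 was at 0.77 and 0.75.

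The 5 genes nearest to the mean pattern of Mcm2 to Mcm7 were sought among 12143 named genes measured on the 3 arrays. That mean was 0.01 for siNeg against mock and 0.99 for siKrt15 against siNeg, and nearness was the Euclidean distance in these 2 differences. The nearest was Kifc3, a minus-end kinesin, at a distance of 0.01 with a difference of 0.99. Also among the 5 were Mndal, an interferon-inducible gene (1.0), Ccn4, a matricellular protein (1.02), and Apol9b, an apolipoprotein L (1.02). With 3 arrays a pattern has 2 free values, and 21 genes lay within a distance of 0.1. That radius was chosen after the values were seen.

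**Figure D5:**
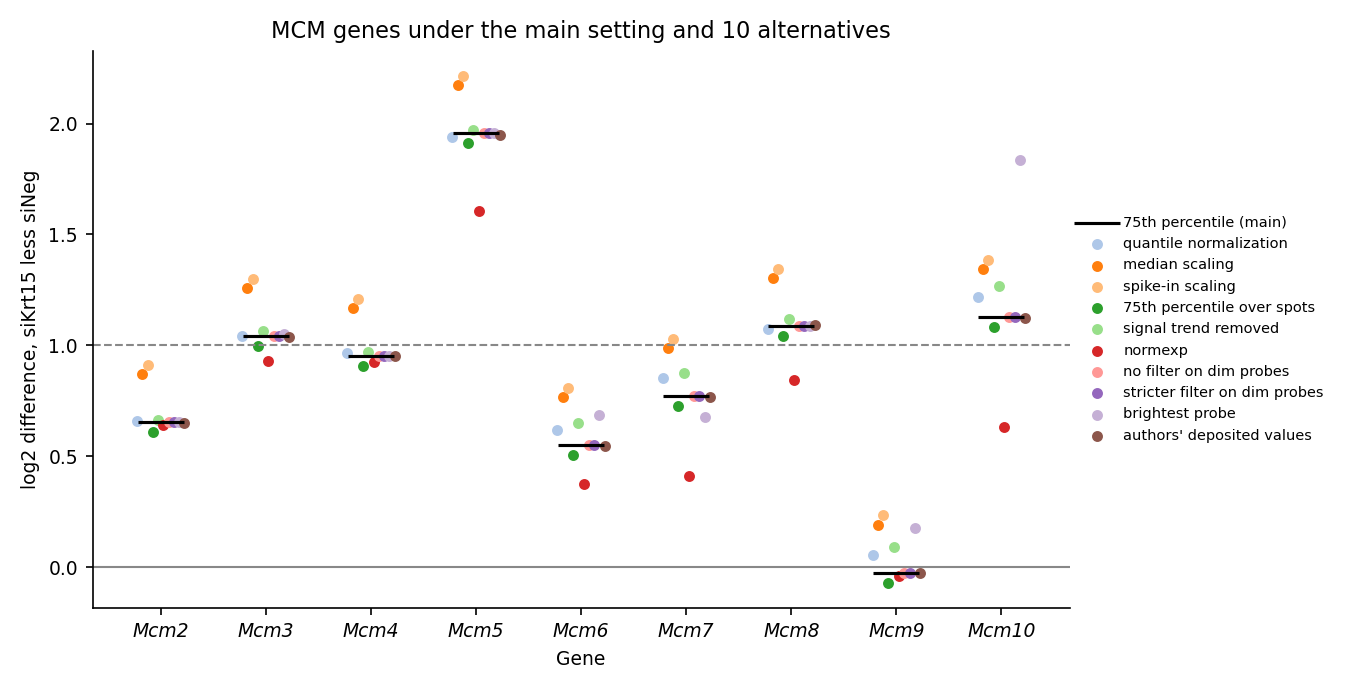
Log2 difference of siKrt15 from siNeg for each MCM gene under the main scaling (black bar) and 10 alternative settings (coloured points), with a solid line at 0 and a dashed line at 2-fold. Mcm5 lies above 2-fold in every setting (1.61 to 2.21), Mcm9 stays between −0.07 and 0.23, and normexp gives the lowest values of Mcm3, Mcm5, Mcm6, Mcm7, Mcm8 and Mcm10.

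Each of the 8 members other than Mcm9 was above 0 against both controls under the main scaling and all 7 others. In the main scaling 39.4% of all genes were above 0 against siNeg and 41.9% against mock. These shares were not counted in the other scalings, and in some the median of all genes was itself above 0. With quantile, trend, median and spike-in scaling it was 0.01, 0.03, 0.14 and 0.18 against siNeg. Against mock it was 0.02, 0.04, 0.14 and 0.05. At least 2-fold higher against siNeg in all 8 scalings was Mcm5 alone. Mcm8 and Mcm10 were so in 7 of 8, Mcm3 in 6, Mcm4 in 2 and Mcm7 in 1. Against mock Mcm3 and Mcm5 passed in all 8. Scaling to the array medians moved the median of all genes by 0.22 against siNeg, and spike-in scaling moved it by 0.26. Relative to the all-gene median, Mcm5 was at 1.71 to 2.04 over the 8 scalings and Mcm6 at 0.48 to 0.63. Scalings that move a whole array by a constant (main, median, spike-in and percentile over spots) give the same relative value by construction. The deposited values follow the main scaling, so only quantile scaling, the signal trend and normexp could move it. Of the genes past 2-fold in siKrt15 against siNeg 46.0% were higher in the main scaling and 77.3% with median scaling. Over the scalings this ran from 39.4% with the percentile taken over spots to 81.5% with spike-in scaling. The 2-fold shares over all genes above therefore depend on the scaling. That percentage was 63.7% against mock in the main scaling and 55.7% to 85.7% over the scalings. For siNeg against mock it was 88.6%, and 60.5% with spike-in scaling.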

How the data were processed

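Total RNA from 3 cultures was labelled with Cy3 as cRNA and hybridised to 1-colour Agilent arrays, as the labels' protocols state. Agilent Feature Extraction 11.5.1.1 read the scans, per the submitters' processing notes. The deposited scanner files give, per the file headers (protocol GE1_1105_Oct12), a background-subtracted processed signal per spot, an intensity on a linear scale. The value table that the authors deposited holds log2 values. It followed log2 signal less each array's 75th percentile, with 92.4% to 94.0% of probes within 0.01 after a constant, medians of −3.52 (mock), −3.51 (siNeg) and −3.72 (siKrt15), no centring and the same direction. The 3 arrays share 1 slide and 1 scan.

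Outlier spots (68 to 85 of 59305 per array) were left out and log2 signal was taken less the array's 75th percentile. Probes were named through RefSeq of GRCm38.p6, 32989 by accession, 10224 by symbol and 520 by synonym, and the 12865 others kept the name in the files and entered no gene's value. A probe counted in a comparison if well above background and unsaturated on both arrays, and a gene's difference is the mean over such probes. Its error is the root mean of its probes' error-model variances. No test was possible with 1 array per group, and this number of arrays sets the limit of precision. Alternatives were quantile, median and spike-in scaling, the percentile over spots, a lowess signal trend (fraction 0.3), normexp (offset 50, limma 3.58.1 in R 4.3.3), other filters on dim probes, the brightest probe, the deposited values and a 1.5-fold threshold. The software was Python 3.11.15, pandas 2.3.3, numpy 2.4.6 and statsmodels 0.14.6. Known changes on simulated arrays were read back with the main, quantile and median scalings, the signal trend, the filters and the brightest probe. Spike-in scaling, the percentile over spots, normexp, the deposited values and the sequence steps were not tested in this way.

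The members, gene lists and named genes were chosen with earlier results of these data known. Named were every member, Krt15, each partner gene past 2-fold (otherwise the 5 with the largest difference), the 5 genes nearest to the Mcm2 to Mcm7 mean (mean signal not under the 25th percentile), and genes starting within 1000 bases on the opposite strand. One gene that this rule names is not reported here. Promoter windows came from RefSeq on GRCm38.p6 and probe positions from the files on mm9, with no conversion. The exon or UTR position of the probes was not used here.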

Additional observations from a re-analysis of the deposited data

How the results depend on the processing

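Over the 3 comparisons and 10 alternatives, 243 of 270 member values stayed within 1 error-model SD of the main value, 27 moved farther and 0 changed sign beyond it. Part of this was fixed in advance. Every member probe passed each filter on dim probes, so those settings returned the main value. The brightest probe did the same for genes with 1 probe. A sign change counted only where the main value exceeded its error. No Mcm9 value and no member value in siNeg against mock did so. Normexp, whose offset of 50 is added to every signal and so shrinks the differences of dim probes by construction, left 1 MCM gene at least 2-fold higher against siNeg and 2 against mock. It gave an MCM median of 0.64 and 0.73, a partner median of 0.27 and 0.32, and 82, 102 and 0 genes at least 2-fold higher over all genes in siKrt15 against siNeg, against mock and in siNeg against mock. Median and spike-in scaling gave an MCM median against siNeg of 1.17 and 1.21, a partner median of 0.73 and 0.77, and 493 and 548 genes higher. Median scaling gave 586 against mock, and spike-in scaling 26 in siNeg against mock. With no filter on dim probes the counts were 477, 646 and 836, and at 1.5-fold they were 821, 998 and 422. At 1.5-fold 7 MCM genes were higher against siNeg. The main counts were 291, 374 and 62. The MCM median less the all-gene median stayed between 0.74 and 1.15 against siNeg and between 0.80 and 1.19 against mock. Median scaling, spike-in scaling and the percentile over spots leave this value unchanged by construction. With the brightest probe Mcm10 was at 1.84 and 2.06. No paired analysis was possible because each group has 1 array. No array can be left out for the same reason.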

Other observations

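Krt15 was itself lower on the siNeg array than on the mock array, by a log2 difference of −0.60, while the 9 MCM genes differed by −0.08 to 0.19 between these arrays. With 1 array each, the relation of the 2 measures was not tested.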
